A study of Mus musculus with 6 samples.

Results

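The homeobox, PAX and T-box transcription factors that pattern the head and mark positional origin were measured in temporomandibular joint (TMJ) tissue of mice with and without Igf2bp2, which encodes an RNA-binding protein. The members are the genes whose symbol belongs to the HOX, DLX, MSX, PAX, PITX, PRRX, LHX, sine oculis, ALX, BARX, MEIS, PBX, SHOX2 or TBX families. This rule found 67 members among 22032 listed genes. T-box genes and some PAX genes carry no homeobox, so the set is joined by role and not by 1 domain. Genes of these families without a row are not analysed here.

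Bulk RNA sequencing covered 3 libraries titled Igf2bp2-KO (knockout) and 3 titled Igf2bp2-WT (wild type), all from littermates aged 10 weeks. The series writes the knockout as Igf2bp2-/-. The sources used here give neither the deleted part of the gene nor the strain or sex, nor whether a library holds 1 animal or a pool. KO 1 with KO 3, and WT 2 with WT 3, agreed within the sampling noise of read pairs. Each such pair entered as 1 sample (n = 2 samples per group), and p-values cover only the spread between samples, which may be technical.

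The vertebrate face is built largely by cranial neural crest. Crest of the first pharyngeal arch, which forms the jaws and their joint, is known for making skeleton without HOX expression, while tissue further back carries HOX codes that follow gene order in the clusters. Within the first arch, nested DLX expression sets lower against upper jaw. PRRX, ALX, MSX and SHOX2 factors act in facial mesenchyme, and BARX1, PAX9, LHX6 and MSX1 are known from tooth development.

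Of the 67 members 44 had enough counts to test, and 7 changed. Prrx1, Shox2, Barx1 and Six2 were lower in the knockout, and Lhx6, Pax9 and Meis1 were higher (edgeR quasi-likelihood test, Benjamini-Hochberg false discovery rate, FDR, under 0.05). The 7 are 15.9% of the tested members, next to 17.6% of all 14632 genes tested. Called lower were 4 members, next to 8.48% of all genes, and called higher were 3, next to 9.15%. At an unadjusted p under 0.05 there were 13 members, next to 30% of all genes. The shares were thus near or below those of the transcriptome. Leaving out KO 1 left 4 members called, all lower, next to 17.2% of all genes tested in that fit. Leaving out WT 3 gave 6 members called, 1 of them higher, next to 16.7%. Without KO 2 or WT 1 a group holds 1 sample, which is assumed to vary like the other group, so these fits say little about how stable a call is. The median log2 fold change (knockout minus wild type) was -0.09 over the tested members and -0.01 over all tested genes.

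The stretches that follow are the 250 bases before the RefSeq start of the 7 members that changed, which carry the comparison, and of Hoxd8, the HOX gene with the most counts. They come from the RefSeq promoter table of build GRCm38.p6, while the deposited counts name another build, and run 5′ to 3′ on the strand of the gene. For Lhx6, with 3 windows in the table, the first is shown. They are Prrx1 at chr1:163313651-163313900 on the minus strand, Barx1 at chr13:48662786-48663035 on the plus strand, Shox2 at chr3:66981772-66982021 on the minus strand, Six2 at chr17:85688255-85688504 on the minus strand, Lhx6 at chr2:36105409-36105658 on the minus strand, Pax9 at chr12:56695221-56695470 on the plus strand, Meis1 at chr11:19018970-19019219 on the minus strand, Hoxd8 at chr2:74704365-74704614 on the plus strand. Capitals mark matches on either strand to the homeodomain core TAATTA or TAATTG, the MEIS site TGACAG, the PBX-HOX site TGATTNAT or the T-box site AGGTGT.
Prrx1: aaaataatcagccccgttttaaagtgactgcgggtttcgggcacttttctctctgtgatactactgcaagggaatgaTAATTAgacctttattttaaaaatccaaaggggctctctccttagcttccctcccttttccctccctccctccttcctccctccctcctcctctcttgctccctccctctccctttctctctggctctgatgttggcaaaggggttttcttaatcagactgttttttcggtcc
Barx1: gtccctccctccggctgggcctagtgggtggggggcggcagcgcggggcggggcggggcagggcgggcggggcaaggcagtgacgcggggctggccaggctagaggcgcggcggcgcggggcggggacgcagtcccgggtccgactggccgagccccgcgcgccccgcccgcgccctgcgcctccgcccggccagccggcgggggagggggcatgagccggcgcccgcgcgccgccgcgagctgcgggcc
Shox2: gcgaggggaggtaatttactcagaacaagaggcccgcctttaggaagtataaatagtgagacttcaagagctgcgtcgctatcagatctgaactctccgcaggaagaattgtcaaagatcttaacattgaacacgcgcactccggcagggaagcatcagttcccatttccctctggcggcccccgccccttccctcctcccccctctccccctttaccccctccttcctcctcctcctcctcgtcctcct
Six2: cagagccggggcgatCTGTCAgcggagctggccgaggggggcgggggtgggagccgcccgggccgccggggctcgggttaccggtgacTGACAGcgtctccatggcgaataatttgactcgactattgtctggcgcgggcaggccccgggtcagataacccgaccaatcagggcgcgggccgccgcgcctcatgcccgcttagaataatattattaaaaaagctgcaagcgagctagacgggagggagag
Lhx6: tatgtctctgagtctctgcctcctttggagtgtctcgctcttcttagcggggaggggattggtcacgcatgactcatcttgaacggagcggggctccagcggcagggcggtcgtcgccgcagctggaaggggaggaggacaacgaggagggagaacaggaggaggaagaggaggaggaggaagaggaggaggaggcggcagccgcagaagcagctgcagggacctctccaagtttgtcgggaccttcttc
Pax9: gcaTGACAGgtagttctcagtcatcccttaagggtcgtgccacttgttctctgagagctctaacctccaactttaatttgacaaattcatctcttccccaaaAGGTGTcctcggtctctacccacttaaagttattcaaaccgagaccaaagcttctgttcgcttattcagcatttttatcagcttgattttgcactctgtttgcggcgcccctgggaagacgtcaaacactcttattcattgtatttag
Meis1: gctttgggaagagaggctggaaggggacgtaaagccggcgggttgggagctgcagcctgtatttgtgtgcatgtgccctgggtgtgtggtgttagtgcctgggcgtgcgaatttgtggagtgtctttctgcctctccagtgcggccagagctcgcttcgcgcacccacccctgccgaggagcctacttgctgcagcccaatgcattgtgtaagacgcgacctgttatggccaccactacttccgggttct
Hoxd8: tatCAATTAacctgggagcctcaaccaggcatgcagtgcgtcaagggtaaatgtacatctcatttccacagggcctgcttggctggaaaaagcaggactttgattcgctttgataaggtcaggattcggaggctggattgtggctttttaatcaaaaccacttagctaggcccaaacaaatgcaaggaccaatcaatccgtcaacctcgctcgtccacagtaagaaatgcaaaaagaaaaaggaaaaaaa

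The table held 44 of the 67 members, with 53 windows of 250 bases. A homeodomain core stood in 11.3% of the member windows and in 11.3% of all 32851 windows. The MEIS site was in 17% of member windows and 15.9% of all, the PBX-HOX site in 3.77% and 2.82%, and the T-box site in 7.55% and 11.8%. Prrx1 held TAATTA from 173 bases before the start and Hoxd8 held CAATTA from 247. Six2 had CTGTCA at 235 and TGACAG at 162 bases, and Pax9 had TGACAG at 247 and AGGTGT at 148. The windows of Barx1, Shox2, Lhx6 and Meis1 held none of these letters. G and C made up 43.6% of the Pax9 window and 85.6% of the Barx1 window. A match is a string of letters and not a measured binding site.

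Library values are given in the order of replicates 1, 2 and 3. Igf2bp2 had 13, 14 and 10 counts in the knockout and 38, 20 and 24 in the wild type, lower in every library titled KO but not at 0. Libraries held 28551236 to 35094127 counts. The mitochondrial share was 85.3% to 86.0% in the knockout and 90.6% to 90.8% in the wild type, which left 2625472 to 4899680 counts on nuclear genes and 2814 to 5010 on the members together. Levels are given as CPM, library counts scaled to a common total with trimmed mean of M-values (TMM) factors. Taking each count as independent, a count of 0 allows up to 0.0714 to 0.132 CPM in these libraries, for counting error only. Where 2 counts come from a single read pair, a count of 0 allows more. Of the joint's own genes, Prg4, which encodes the lubricant of synovium and cartilage surface, had 46.0 CPM in the knockout and 11.3 in the wild type. The cartilage genes Col2a1 and Acan were low, at 66 and 34 counts or fewer in a library.

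Markers of several tissues differed between the groups. Of all genes tested, 9.15% were called higher and 8.48% lower. All 11 tested salivary gland markers were higher in the knockout (summed level 531 to 567 against 41.9 to 45.5 CPM), as were 8 of 10 tested autonomic neuron markers (51.1 to 53.0 against 2.57 to 2.69 CPM). Among the autonomic neuron markers, Phox2a, Dbh, Chrna3, Slc5a7 and the untested Npy were at 0 in the wild type. Vip alone had a mean of 30.7 CPM in the knockout, so it made up most of that sum. Isl1 (-0.82) and Gata3 (-1.14) went the other way. Their knockout libraries lay below their wild-type libraries, but they did not pass (edgeR FDR 0.207 and 0.268). Of 9 odontoblast and ameloblast markers 1 was higher and 6 were lower (541 to 571 against 1527 to 1641 CPM). All 9 Schwann cell markers were lower (489 to 508 against 1426 to 1469 CPM), as were 8 of 10 olfactory and nasal markers (4.62 to 5.65 against 33.5 to 36.6 CPM) and 2 of 4 pituitary markers (29.8 to 35.6 against 96.7 to 102 CPM). Of 12 fast muscle markers 5 were higher and 0 lower (7566 to 8806 against 4985 to 6892 CPM). Of 6 osteoblast markers 2 were higher and 1 lower (560 to 634 against 273 to 314 CPM). Most of this sum was Col1a1, at 528 CPM in the knockout and 245 in the wild type. The median log2 fold change of the osteoblast list was -0.11. Of 5 synovial markers 2 were higher (85.3 to 93.1 against 48.2 to 58.0 CPM). Of 4 chondrocyte markers 0 passed by edgeR (4.07 to 5.67 against 5.71 to 6.45 CPM). The part of these tissues in the results on the members was not tested. In bulk tissue, fewer cells of a type and less RNA per cell cannot be told apart.

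Prrx1 was the most abundant of the members that fell. It encodes a paired-class homeodomain factor of limb and facial mesenchyme. Its level was 8.61, 8.21 and 9.63 CPM in the knockout and 20.1, 19.1 and 18.9 in the wild type. Every knockout library lay below every wild-type library, with means of 8.67 ± 0.638 CPM in knockout and 19.5 ± 0.815 in wild-type samples (SD, n = 2). The log2 fold change was -1.17 (SE 0.12, 95% interval -1.42 to -0.92, edgeR FDR 1.35e-05), or 2.25-fold lower. Its paralog Prrx2 had 1.38, 1.62 and 1.21 CPM in the knockout and 2.26, 1.24 and 2.68 in the wild type. Here WT 2 lay within the knockout range, and the difference of -0.56 did not pass (FDR 0.123). Without WT 2 it passed (-0.78, FDR 0.0426).

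Barx1, a homeobox gene of molar and stomach mesenchyme, had the largest decrease of the tested members. It had 2.14, 1.79 and 1.29 CPM in the knockout and 5.47, 5.96 and 4.12 in the wild type. The highest knockout library lay below the lowest wild-type library. The log2 fold change was -1.58 (SE 0.18, edgeR FDR 3.12e-05), or 2.98-fold lower. Its paralog Barx2 had 17, 13 and 18 counts in the knockout and 18, 11 and 4 in the wild type and did not pass (-0.19, 95% interval -1.27 to 0.88).

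Shox2, a homeobox gene of limb, palate and jaw joint, had 2.14, 3.05 and 2.24 CPM in the knockout and 6.06, 4.41 and 4.78 in the wild type. The libraries of the groups did not overlap, and the level was 2.05-fold lower (log2 fold change -1.04, SE 0.20, edgeR FDR 0.00339). Six2, a homeobox gene of kidney progenitors and cranial mesenchyme, had 0.917, 1.1 and 0.850 CPM in the knockout and 2.77, 2.03 and 2.29 in the wild type. Again all knockout libraries were below all wild-type libraries, and the level was 2.50-fold lower (-1.32, SE 0.25, edgeR FDR 0.00217).

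The 4 decreases passed under each alternative that tested the gene, 15 for Prrx1, Barx1 and Shox2 and 14 for Six2, of which those without KO 2 or WT 1 have a group of 1 sample. Over these the log2 fold change was -1.21 to -1.1 for Prrx1, -1.77 to -1.40 for Barx1, -1.27 to -0.83 for Shox2 and -1.46 to -1.14 for Six2. The Schwann cell markers and 6 of 9 tooth markers were lower in the same libraries. Amelx, an enamel matrix gene, had a change of -1.75, and Dspp, the dentin gene, one of 3.72.

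**Figure D1:**
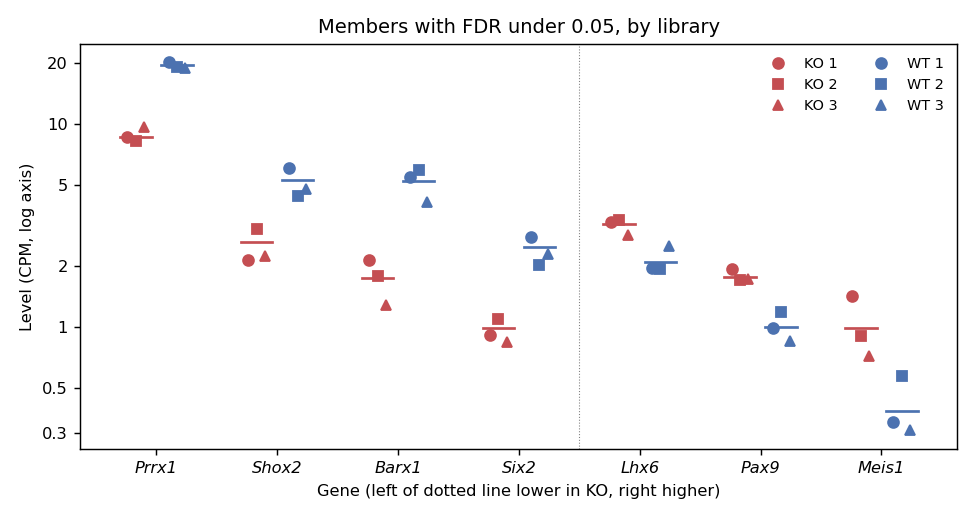
Level of the 7 members with an edgeR FDR under 0.05 in each library, in CPM on a log axis; red marks knockout, blue marks wild type, marker shapes are replicate numbers and short lines are means of the 2 samples of a group. The groups do not overlap for any of the 7, from Prrx1 (8.21 to 9.63 CPM in knockout, 18.9 to 20.1 in wild-type libraries) to Meis1 (0.721 to 1.43 and 0.311 to 0.574).

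The members that rose had smaller margins. Meis1 encodes a TALE homeodomain cofactor that binds DNA with PBX and HOX proteins. It had 56, 38 and 28 counts in the knockout and 10, 13 and 8 in the wild type, or 1.43, 0.905 and 0.721 CPM in the knockout and 0.342, 0.574 and 0.311 in the wild type. The libraries did not overlap, and KO 1 was the highest. The level was 2.52-fold higher (1.33, SE 0.37, edgeR FDR 0.0231). It no longer passed when KO 1, KO 2, WT 1 or WT 3 was left out (FDR 0.120, 0.0845, 0.0678 and 0.0743) or in the DESeq2 Wald test (adjusted p 0.112).

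Pax9, a paired-box gene needed for teeth and palate, had 1.94, 1.71 and 1.73 CPM in the knockout and 0.992, 1.19 and 0.855 in the wild type. All knockout libraries were above all wild-type libraries, and the level was 1.77-fold higher (0.82, SE 0.25, edgeR FDR 0.0353). Leaving out KO 1, KO 2, WT 1 or WT 3 ended the call (FDR 0.0700, 0.151, 0.0758 and 0.0968), as did the DESeq2 Wald test (adjusted p 0.196).

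Lhx6, a LIM homeobox gene of first arch and tooth mesenchyme, had 3.31, 3.36 and 2.83 CPM in the knockout and 1.95, 1.94 and 2.52 in the wild type. KO 3 and WT 3 were close, but the groups did not overlap. The level was 1.51-fold higher (0.60, SE 0.19, edgeR FDR 0.0467). It no longer passed when KO 1, KO 2, WT 1 or WT 2 was left out (FDR 0.0998, 0.269, 0.116 and 0.119), with upper-quartile factors (0.0531), in limma-voom (0.0561) or in the DESeq2 Wald test (0.216). Lhx8, which acts with Lhx6 in the first arch, had 10, 12 and 9 counts in the knockout and 19, 0 and 17 in the wild type. WT 2 stood at 0, and the difference of -0.88 did not pass (FDR 0.281). Lhx2 did not pass (-0.36, FDR 0.704), and Lhx3 and Lhx9 had at most 2 counts in a library.

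HOX genes were at or near 0 outside the HOXD cluster. The 14 HOX members had 850 counts over the 6 libraries, and 789 of these were in Hoxd3, Hoxd4, Hoxd8 and Hoxd9. The other 10, of which 5 lie in HOXA, 4 in HOXB and Hoxd10 in HOXD, had at most 7 counts in a library, 28 in all in the knockout and 33 in the wild type. Among them Hoxa3 had 0, 0 and 0 counts in the knockout and 3, 4 and 0 in the wild type, and Hoxb3 had 3, 4 and 0 counts in the knockout and 0, 4 and 2 in the wild type. Genes at 2 counts outnumber genes at 1 in every library, so 2 counts may be a single read pair.

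Hoxd8, from the middle of the cluster, had 87, 113 and 86 counts in the knockout and 71, 48 and 78 in the wild type. At 2.22, 2.69 and 2.21 CPM in the knockout and 2.43, 2.12 and 3.03 in the wild type the groups overlapped. The difference was -0.05 (95% interval -0.48 to 0.37, FDR 0.895). Per kb of transcript its level was 0.931 CPM in the knockout and 0.955 in the wild type, below Prrx1 at 1.33 and 2.99.

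The other tested HOX genes were lower in level. Hoxd4 had 44, 38 and 32 counts in the knockout and 22, 24 and 11 in the wild type. Its difference was 0.36 (95% interval -0.34 to 1.05, FDR 0.514), and its groups overlapped in CPM. Hoxd9 had 19, 25 and 12 counts in the knockout and 10, 2 and 12 in the wild type, also with overlap (0.63, 95% interval -0.41 to 1.67, FDR 0.422). Hoxd3, the most anterior HOXD member measured, had 15, 16 and 11 counts in the knockout and 3, 3 and 7 in the wild type. Its knockout libraries lay above its wild-type libraries in CPM, but the difference of 1.1 had a 95% interval of -0.16 to 2.36 and did not pass (FDR 0.232). Of the 4 tested HOX genes 0 passed by edgeR, by DESeq2 or by limma-voom, and 0 had an unadjusted edgeR p under 0.05. Of all genes tested 17.6%, 11.2% and 18.5% passed by these tests in that order, and 30% had such a p. For these 4 genes, changes inside the 95% intervals were not excluded with n = 2 samples per group.

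Halr1, a noncoding gene beside HOXA, had 31, 39 and 44 counts in the knockout and 20, 9 and 14 in the wild type. The libraries did not overlap in CPM, and the difference of 0.74 did not pass (FDR 0.181). Lnpk and Mtx2, genes next to HOXD that were named after their values were seen, had differences of 0.12 (FDR 0.728) and -0.09 (FDR 0.819).

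**Figure D2:**
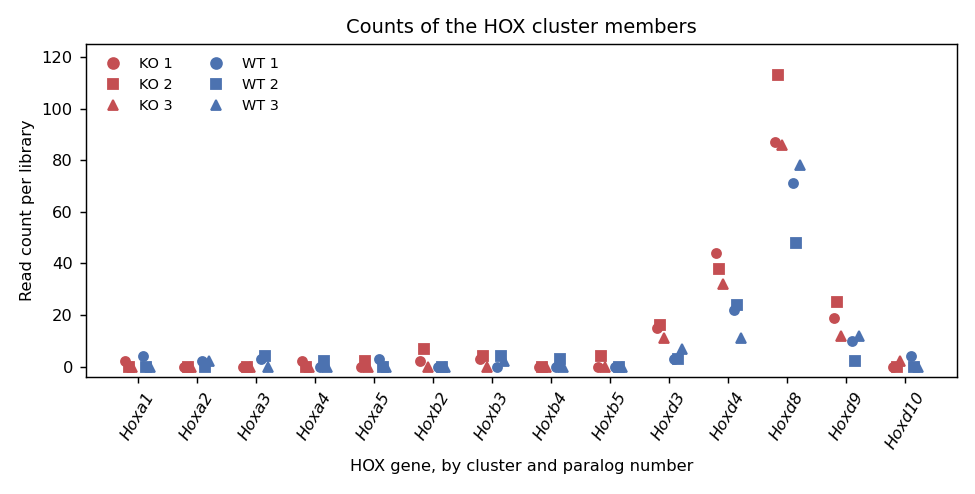
Read counts per library (not scaled for depth) of the 14 HOX members by cluster and paralog number; red marks knockout, blue marks wild type, and marker shapes are replicate numbers. Hoxd8 reaches 48 to 113 counts, Hoxd3, Hoxd4 and Hoxd9 lie between 2 and 44, and the other 10 stay at 7 or below.

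PBX and MEIS factors are the TALE cofactors of HOX proteins. Pbx2 had 5.55, 5.60 and 4.74 CPM in the knockout and 6.81, 4.94 and 6.14 in the wild type. The groups overlapped, with a difference of -0.20 (95% interval -0.53 to 0.13). Pbx3 (0.15, FDR 0.709) did not pass, and Pbx4 had at most 6 counts. Of the other MEIS genes, Meis3 had 1.81, 1.43 and 1.26 CPM in the knockout and 1.37, 1.46 and 1.75 in the wild type, with overlap (-0.01, FDR 0.979). Meis2 had 0.695 to 0.968 CPM in the knockout and 1.05 to 1.20 in the wild type, lower without overlap, but its difference of -0.37 did not pass (FDR 0.452).

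All 6 DLX genes were tested and 0 were called by edgeR, the DESeq2 Wald test or limma-voom, while Dlx6 alone had an unadjusted edgeR p under 0.05. The shares over all genes were 17.6%, 11.2% and 18.5% called, and 30% with such a p. They sit in neighbouring pairs, and Dlx5 with Dlx6 acts downstream of endothelin signalling in the lower jaw. Dlx3, also a gene of epithelium and tooth, had the highest level, 6.09, 8.02 and 6.08 CPM in the knockout and 8.31, 5.74 and 4.54 in the wild type. The groups overlapped (0.08, 95% interval -0.47 to 0.64). Dlx5 had 2.09, 1.98 and 2.37 CPM in the knockout and 2.29, 1.68 and 2.52 in the wild type, with overlap (-0.06, FDR 0.890). Its partner Dlx6 had 0.764, 0.905 and 0.670 CPM in the knockout and 1.95, 1.46 and 0.816 in the wild type. WT 3 lay within the knockout range, and the difference of -0.90 did not pass (FDR 0.0784). It passed with 6 separate libraries (FDR 0.0491), with no filter (0.0392) and without WT 3 (0.0284). The antisense gene Dlx6os1, whose reads cannot be told apart from those of Dlx6 where strand was not used, differed by 0.05 (FDR 0.932). Dlx1, Dlx2 and Dlx4 differed by -0.34, -0.17 and -0.13.

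Msx1 and Msx2, homeobox genes that respond to BMP signals, did not pass. Msx1 had 5.53 ± 0.492 CPM in knockout and 5.74 ± 1.08 in wild-type samples (SD, n = 2), a difference of -0.04 (95% interval -0.40 to 0.31). Msx2 had 3.54, 3.17 and 3.66 CPM in the knockout and 2.84, 2.56 and 2.76 in the wild type. Its knockout libraries were all above its wild-type libraries, but the difference was 0.31 (FDR 0.276). Alx1 and Alx4, genes of frontonasal mesenchyme, differed by -0.32 and -0.64, with FDRs of 0.559 and 0.145.

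Of the 6 PAX members 4 were too low to test. Pax1, the close paralog of Pax9, had 4, 6 and 15 counts in the knockout and 18, 6 and 11 in the wild type, with overlap (-1.21, FDR 0.161). Pax7, a mark of muscle stem cells, had 4, 4 and 4 counts in the knockout and 10, 6 and 6 in the wild type and was not tested. Pax3, Pax5 and Pax6 had at most 5 counts in a library.

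Pitx1 and Pitx3 did not pass. Pitx1, a factor of hindlimb, jaw and pituitary, ranged from 0.662 to 2.46 CPM in the wild type, wider than the 1.07 to 1.60 of the knockout (-0.31, FDR 0.615). Pitx3, known from midbrain neurons, lens and muscle, had 21, 25 and 21 counts in the knockout and 8, 0 and 9 in the wild type. Its libraries did not overlap, and its difference of 1.33 did not pass (FDR 0.0807). The pituitary hormone genes Gh and Prl were lower in the same libraries (-1.63 and -1.42).

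Six4 and Six5, homeobox genes related to Six2, differed by 0.04 (FDR 0.955) and -0.00 (FDR 0.994), and Six3 and Six6 had at most 5 counts.

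The T-box genes held the member with the highest mean CPM over the 6 libraries, though Prrx1 was higher in the wild type. Among 6 tested there were 0 calls by edgeR, the DESeq2 Wald test or limma-voom, next to 17.6%, 11.2% and 18.5% of all genes. Tbx6 alone had an unadjusted edgeR p under 0.05, next to 30% of all genes. Tbx15, a factor of limb, skin and glycolytic muscle fibres, had 14.7, 15.3 and 15.6 CPM in the knockout and 15.1, 13.6 and 15.1 in the wild type. The groups overlapped, and the difference of 0.05 had the narrowest 95% interval of the tested members, -0.19 to 0.29. Tbx2 (0.23, FDR 0.357), Tbx3 (0.33, FDR 0.273), Tbx18 (-0.60, FDR 0.419) and Tbx1, a gene of pharyngeal mesoderm (-0.16, FDR 0.674), did not pass. Tbx6, known from paraxial mesoderm, had 34, 26 and 32 counts in the knockout and 9, 9 and 9 in the wild type. Its libraries did not overlap, and its difference of 1.1 (FDR 0.0894) passed with 6 separate libraries alone. The limb genes Tbx4 and Tbx5 had at most 8 and 2 counts, and Tbx20 and Tbx22 at most 2.

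**Figure D3:**
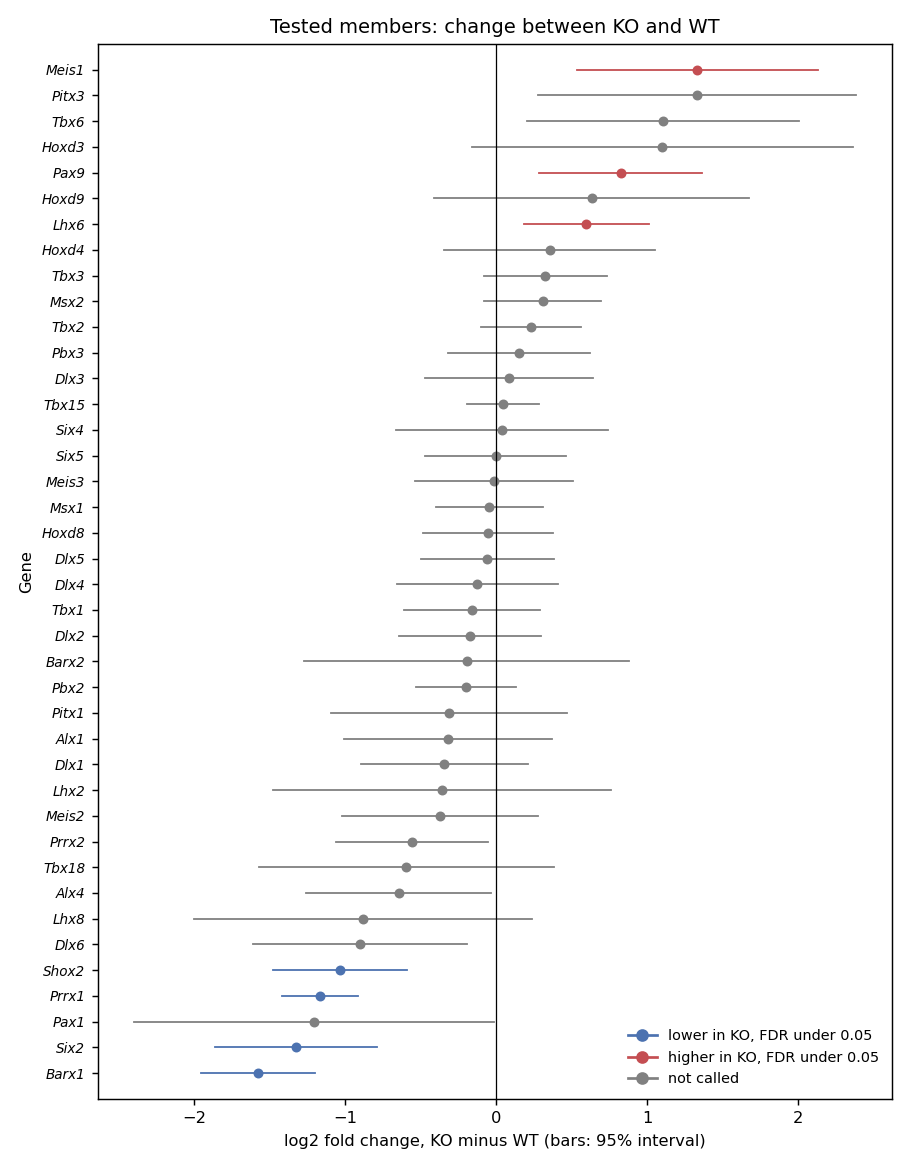
Log2 fold change (knockout minus wild type) of 40 of the 44 tested members with bars for the 95% interval; blue marks genes lower and red genes higher at an edgeR FDR under 0.05. The 4 lower genes lie between -1.58 and -1.04 and the 3 higher between 0.60 and 1.33.

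Over the 44 tested members the libraries of the groups did not overlap in 12, 7 higher and 5 lower, next to 38.5% of all genes tested (19.3% higher and 19.2% lower). Beside the 7 that changed these were Msx2, Pitx3, Tbx6 and Hoxd3 above and Meis2 below. Of the 37 members not called, 21 had a 95% interval within 1 log2 unit either way and 5 within 0.5.

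Per kb of the longest transcript, Tbx15 stood highest in both groups, at 4.27 CPM in the knockout and 4.13 in the wild type. In the knockout Msx1 (2.86) and Dlx3 (2.71) came next. In the wild type Barx1 (3.74) and Prrx1 (2.99) came before Msx1 (2.97) and Dlx3 (2.57), though Prrx1 and Msx1 were too close to order. Barx1 was at 1.25 and Prrx1 at 1.33 in the knockout. Meis1 and Hoxd3 were the lowest tested members in the wild type, at 0.0514 and 0.0521.

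**Figure D4:**
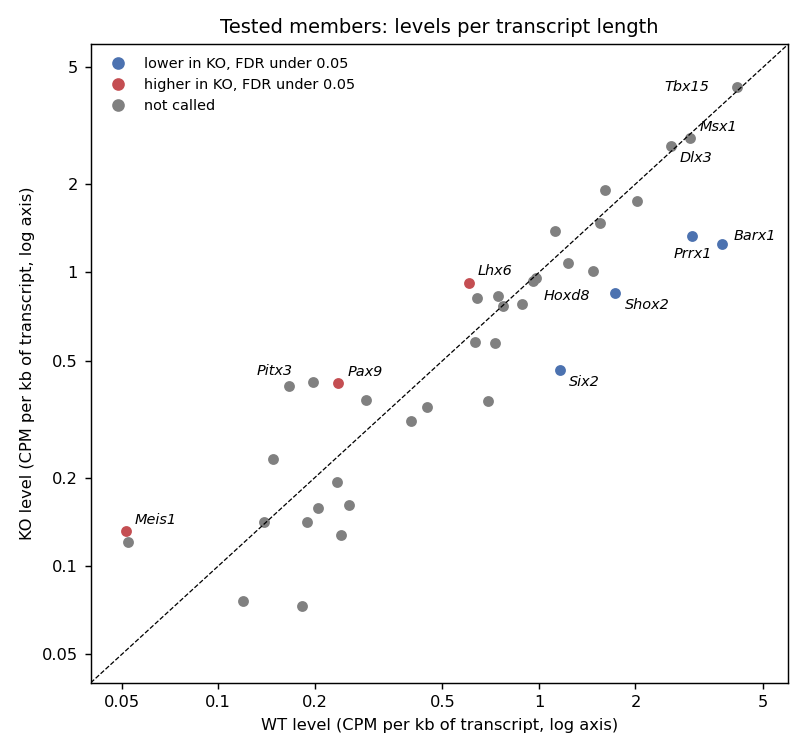
Level of 40 of the 44 tested members in CPM per kb of the longest transcript, wild type on the horizontal and knockout on the vertical axis, both logarithmic, as means of 2 samples per group; the dashed line marks equal levels. Barx1, Prrx1, Shox2 and Six2 (blue) lie below the line, Lhx6, Pax9 and Meis1 (red) above it, and Tbx15 and Msx1 near it.

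Of 60 listed signals and partners of these factors 54 were tested, and 5 were higher and 10 lower in the knockout (27.8%, next to 17.6% of all genes tested). Their median difference was -0.18. Leaving out KO 1, KO 3, WT 2 or WT 3 gave 4 to 6 higher and 10 to 12 lower. Of all genes tested, 16.7% to 17.4% were called in these fits. Whether the list differs from other genes was not tested.

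Of 22 tested partner transcription factors 2 were higher and 6 lower, next to 9.15% and 8.48% of all genes tested. Twist1, a bHLH factor of cranial mesenchyme, had 2.03 ± 0.288 CPM in knockout and 4.02 ± 0.458 in wild-type samples (SD, n = 2; log2 fold change -0.99, edgeR FDR 0.00278). Runx2, which commits cells to bone, had a change of -1.39, and Sox10, a factor of neural crest and of Schwann cells, one of -1.61. Sox10 is also on the Schwann cell list and Runx2 on the osteoblast list. Eya2, a coactivator of sine oculis proteins, had a change of -1.15. Outside the naming rule, Nr2f1 (-1.12) was lower, and Eya1 (0.62) and Hand2 (0.80) higher. Hand2 is known from both the lower jaw and autonomic neurons. Of 10 tested markers of these neurons 8 were higher in the same libraries.

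Of 7 tested retinoic acid genes 1 was higher and 3 lower, next to 9.15% and 8.48% of all genes tested. ALDH1A enzymes make retinoic acid and CYP26 enzymes break it down, and HOX and MEIS genes are known to respond to it. Aldh1a2 had 3.10 ± 0.268 CPM in knockout and 8.72 ± 0.150 in wild-type samples (SD, n = 2; log2 fold change -1.50, edgeR FDR 1.23e-05). Aldh1a3 had a change of -1.17 (FDR 0.000305) and Cyp26b1 one of 0.76 (FDR 0.00129). The receptor gene Rarg, outside the rule, was lower (-0.88).

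Of 13 tested signals 2 were higher and 1 lower, next to 9.15% and 8.48% of all genes tested. Edn1, the endothelin ligand that acts upstream of Dlx5 and Dlx6 in the lower jaw, had 2.37 ± 0.418 CPM in knockout and 0.800 ± 0.212 in wild-type samples (SD, n = 2; log2 fold change 1.54, edgeR FDR 0.00125). Outside the rule, Bmp4 was higher (0.64) and Shh lower (-0.76). Of the 12 chromatin regulators of HOX clusters, such as the Polycomb genes Ezh2 and Suz12, 0 passed by edgeR, next to 17.6% of all genes tested. An unadjusted edgeR p under 0.05 was found for 5 of them, next to 30% of all genes. The DESeq2 Wald test called 0 and limma-voom 0 of them, next to 11.2% and 18.5% of all genes.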

How the data were processed

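Bulk mRNA of mouse TMJ was sequenced in 3 knockout (KO) and 3 wild-type (WT) libraries, grouped by title. The authors deposited raw counts by gene symbol for all libraries, without normalization. The submitters' processing notes list the tools HISAT2 2.1.0 and StringTie 2.1.5 with build mm39. What each tool did, and which annotation, strand option and multi-mapping rule applied, was not stated there.

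Library pairs were compared by observed over counting variance, at 2 counts per read pair and at least 20 summed counts. KO 1 with KO 3 (median 0.94) and WT 2 with WT 3 (0.96) fell under 1.1 and were summed, so each group had 2 samples. Members and lists were chosen with earlier results of these data known.

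Counts were fitted with edgeR 4.0.16 in R 4.3.3 (filterByExpr, minimum count 10, TMM, robust quasi-likelihood), with FDR over all 14632 tested genes. The SE is the absolute log2 fold change over the square root of F. A library's CPM uses its sample's factor. Lengths are of the longest GENCODE M21 transcript. The fit was tested on simulated data. Alternatives were 6 separate libraries, other scalings and filters, DESeq2 1.42.0, limma-voom (limma 3.58.1), a replicate block and each library left out.

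Named are members called, those with a mean of at least 1 CPM, the highest of each family, noncoding HOX genes with at least 10 counts in a library and the 8 patterning genes of smallest p. Other names were chosen after their values were seen. Some genes that the rule takes are not reported here.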

Additional observations from a re-analysis of the deposited data

How the results depend on the processing

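With 6 separate libraries 9 members were called, the 7 of the main analysis with Dlx6 and Tbx6, and 25% of all genes passed. The DESeq2 Wald test called 4 members, 0 of them higher, next to 11.2% of all genes tested. Leaving out KO 1, KO 3, WT 2 or WT 3 gave 4 to 7 members, 0 to 3 higher and 4 to 5 lower. Of all genes tested, 16.7% to 17.4% were called in these fits. Without KO 2 or WT 1 a group holds 1 sample, assumed to vary like the other group. All genes called numbered 1149 without KO 2 and 1634 in the DESeq2 Wald test, against 2580. The cause of these lower numbers was not tested. Requiring 50 or more counts in 3 libraries tested 25 members, without Six2 and Meis1. No HOX member was called in these settings. The patterning list had 8 higher genes with 6 separate libraries. It had 15 to 17 genes, 4 to 6 higher and 10 to 12 lower, without KO 1, KO 3, WT 2 or WT 3.

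Same-numbered libraries did not deviate together (correlations -0.10, -0.14 and 0.08), and not every library correlated best with its own number. With the replicate block over 6 separate libraries 6 members and 2941 genes were called, against 9 and 3452 without it, and Lhx6 was lost (0.57, FDR 0.0546).

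Log2 differences were followed over the settings for the reported members called or with a mean of at least 1 CPM. Among these the differences changed sign only in members not called, at FDR 0.342 or above. With a library left out they ranged over Alx1 -0.41 to 0.066, Dlx2 -0.31 to 0.012, Dlx3 -0.12 to 0.47, Dlx5 -0.19 to 0.078, Hoxd8 -0.19 to 0.093, Meis3 -0.17 to 0.11, Msx1 -0.13 to 0.16, Pbx3 -0.053 to 0.23, Pitx1 -0.54 to 0.32, Six5 -0.13 to 0.33, Tbx1 -0.25 to 0.053. In other settings Meis3 was 0.0068 with no filter; Six5 was 0.062 with 6 libraries, 0.00067 with DESeq2 size factors, 0.0045 with TMM on fewer genes, 0.018 with no filter, 0.063 in limma-voom, 0.10 with the replicate block.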
